A study of Mus musculus with 74 samples.

Results

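The comparison set 2 RNA-seq libraries labelled forestomach epithelium against 2 labelled hindstomach epithelium, all taken from mouse embryos at embryonic day 12 (E12). They were chosen by their titles and make up 4 of the 31 RNA libraries in a series of 74 samples. The series follows the epithelium of the developing gut, and its chromatin samples were not analysed here. All 4 libraries came from untreated wild-type CD1 embryos. Stomach pieces were dissociated with trypsin and cells carrying Epcam, a surface protein of epithelia, were sorted. RNA was amplified with a low-input kit that reads whole transcripts without molecular identifiers. Wild-type CD1 forestomach and hindstomach at E14 and E16 and small intestine at E12, with 2 libraries per group, are quoted where they bear on a result. The fit across genes also held wild-type small intestine at E14, E16 and E18 and 7 libraries of small intestine without Cdx2, from Cdx2f/f embryos on a mixed B6;129 background. In these, Shh-Cre removed Cdx2 at E10, or Villin-Cre removed it at E13 or E15 after tamoxifen was given. Tissue was taken at E16 after removal at E10 or E13 and at E18 after removal at E15. These 7 libraries entered only through the shared estimate of the spread and the scaling. The labels do not say how many embryos each library held, nor whether replicates came from separate litters, so p-values measure only the spread between these samples.

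The mouse stomach has a forestomach, which becomes lined by stratified squamous epithelium, and a hindstomach, which becomes glandular. Along the endodermal tube, the transcription factor Sox2 marks the future oesophagus and stomach and Cdx2 marks the future intestine. Within the stomach, Gata4, Nkx6-3 and Pdx1 mark the glandular part or its antrum, whereas Trp63 marks basal cells of squamous epithelium. Hox genes lie in 4 clusters, and within each cluster genes with higher numbers are active closer to the tail end of the body.

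The labels were first checked against these genes, and the libraries labelled E12 hindstomach went against theirs. They held almost none of 4 genes of the glandular stomach, Gata4, Nkx6-3, Pdx1 and Cldn18, and held Cdx2 and posterior Hox genes instead. Gata4 stood at 277 and 273 CPM (read counts scaled to a common library size) in the libraries labelled forestomach and at 0.369 and 0.569 in those labelled hindstomach. Nkx6-3 stood at 40.7 and 47.9 CPM against 0.0615 and 0. Pdx1 stood at 27.5 and 24.6 CPM against 0.461 and 0, and Cldn18, a gastric tight junction gene, at 12.5 and 15.1 against 0.308 and 0.0598. For each of these 4 genes every library labelled forestomach was above every library labelled hindstomach, by over an order of magnitude. At E14 the order was the opposite one: Gata4 stood at 55.7 and 58.1 CPM in libraries labelled forestomach and 358 and 338 in those labelled hindstomach, and Nkx6-3 at 0 and 0 against 54.5 and 55.2. Pdx1 at E14 stood at 1.67 and 3.69 CPM against 32.6 and 31.4, and Cldn18 at 13.4 and 13.1 against 300 and 262. In E12 small intestine, Gata4 stood at 195 and 145 CPM and Pdx1 at 33.6 and 41.0. Nkx6-3 stood there at 2.84 and 0.0637 CPM and Cldn18 at 2.30 and 0.574. Hnf4a, a factor of glandular and intestinal epithelium, was present in the libraries labelled E12 hindstomach, at 22.4 and 42.3 CPM. Cdx2 stood at 2.33 and 2.15 CPM in the E12 libraries labelled forestomach and at 116 and 160 in those labelled hindstomach, beside 153 and 115 in E12 small intestine and 12.7 and 6.20 in E14 hindstomach. The libraries labelled E12 forestomach in turn held genes called higher in forestomach at E14, such as Irx5 and Hoxc5, beside Gata4 and Nkx6-3, which were called higher in hindstomach at E14. Every direction below is therefore that of libraries so labelled, and what tissue they hold was not tested.

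**Figure D1:**
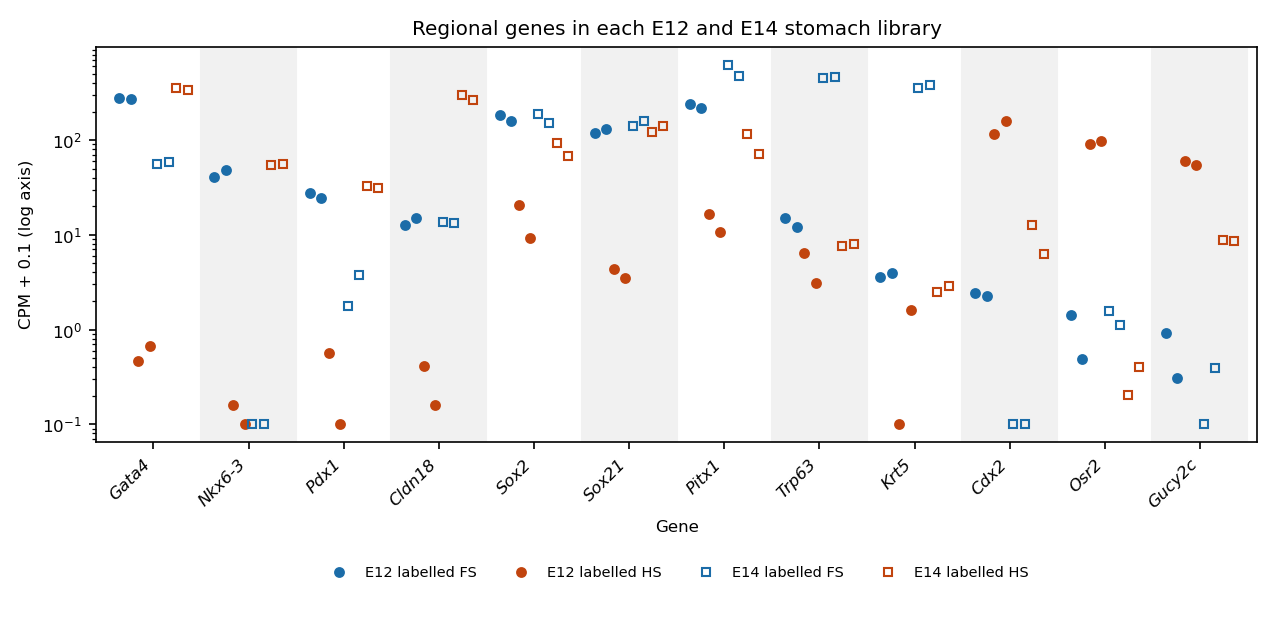
CPM plus 0.1, on a log axis, for 12 regional genes in each stomach library at E12 (filled circles) and E14 (open squares), 2 libraries per group, with forestomach as labelled in blue and hindstomach as labelled in red. Gata4, Pdx1 and Cldn18 were lowest in the E12 libraries labelled hindstomach, Nkx6-3 stood at 2 counts or fewer there and at 0 in E14 forestomach, and Cdx2, Osr2 and Gucy2c were highest in the E12 libraries labelled hindstomach.

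Total counts in the 4 libraries ran from 22816596 to 30881562. Epcam stood at 726 to 888 CPM and did not pass the test (log2 fold change 0.05 with SE 0.13, edgeR adjusted p 0.93). Xist and the Y-linked Ddx3y were both present in each library, at 76.7 to 114 and 21.7 to 45.5 CPM. The replicates differed by more than sampling noise, with a chi-square per degree of freedom of 19.08 for the pair labelled forestomach and 27.3 for the pair labelled hindstomach. They were counted as 2 samples per group because the labels number them so, and the chi-square does not show that they came from separate embryos. Over the 17239 genes tested, the Spearman correlation of log2 CPM was 0.984 between the former and 0.981 between the latter. Correlations of a library with another group were averaged over the 2 libraries of that group. The libraries labelled E12 forestomach correlated with E14 hindstomach at 0.954 and 0.955 and with E14 forestomach at 0.943 and 0.944. Those labelled E12 hindstomach correlated with E14 small intestine at 0.932 and 0.933, with E14 hindstomach at 0.916 and 0.919 and with E14 forestomach at 0.914 and 0.915. Within E12, the libraries labelled hindstomach correlated with those labelled forestomach at 0.949 and 0.949 and with small intestine at 0.939 and 0.938. These are descriptions across genes, which are not independent replicates.

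Between the 2 groups, 1226 of 17239 genes were called, which is 7.11% of those tested. Called means an adjusted p below 0.05 in the edgeR quasi-likelihood test together with a log2 fold change of 1 or more, up or down. Of these, 488 were higher in the libraries labelled forestomach (2.83% of the genes tested) and 738 were lower (4.28%). The CPM of the groups did not overlap for 1211 of the called genes, against 48.5% of all genes tested. Among the called genes, 105 had 0 counts in both libraries labelled hindstomach and 136 had 0 counts in both labelled forestomach. The median log2 fold change over all genes was 0. With only the 6 E12 libraries in the fit, where the small intestine pair differed by a chi-square per degree of freedom of 73.1, 370 genes were called, 137 higher and 233 lower. With only the 4 libraries compared, 1103 were called, 396 higher and 707 lower.

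The 12 genes with the largest folds on the side of the libraries labelled forestomach had at most 14 counts in either library labelled hindstomach. Cpa1, a digestive carboxypeptidase made by pancreatic progenitors and acinar cells, stood at 79.9 and 75.9 CPM in the libraries labelled forestomach and at 0 counts in both labelled hindstomach. That is at least 856-fold higher, taking 3 counts per library as the floor (edgeR adjusted p 1.8e-05). P2rx1, an ATP-gated ion channel, was at least 175-fold higher, at 15.01 and 16.8 CPM against 0 counts. Ptgdr, a prostaglandin D2 receptor, was at least 137-fold higher, at 10.9 and 14.1 CPM against 0 counts. Neurod1 and Nkx2-2, transcription factors of endocrine cells, were at least 99.7-fold and 88.7-fold higher. Nkx6-2, a homeodomain factor of pancreatic and neural progenitors, stood at 149 and 158 CPM against 1 count in each library labelled hindstomach, a ratio of 5076 with a 95% exact counting interval of 1405 to 41918. Intervals and floors cover counting error only.

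Among the rest of the 12, Nkx6-3, a factor of the glandular stomach, had 2 and 0 counts there, a ratio of 1479 with a 95% exact counting interval of 409 to 12218 (edgeR adjusted p 7.4e-06). Cckar, a receptor for the hormone cholecystokinin, stood at 27.2 and 23.5 CPM against 1 and 0 counts. Cym, the milk-clotting enzyme of the stomach of young mammals, stood at 143 and 142 CPM against 0.246 and 0. Sfrp5, a secreted Wnt inhibitor, stood at 32.0 and 36.0 CPM against 1 count in each, and at 267 and 224 CPM in E12 small intestine. Gcg, which encodes glucagon and the related gut peptides, stood at 272 and 247 CPM against 0.123 and 0.419, a log2 fold change of 9.87 with an SE of 0.95 (edgeR adjusted p 6.7e-07). The value for Gcg was 9.26 without the first library labelled hindstomach and 10.98 without the second. Shisa6, a membrane protein, closed the group at 12.4 and 12.9 CPM against 0 and 1 counts. In each of the 12 genes both libraries labelled forestomach lay above both labelled hindstomach, which the naming rule required. Cpa1 (231 and 224 CPM), P2rx1 (44.7 and 41.8), Nkx2-2 (17.1 and 15.6) and Sfrp5 were higher in E12 small intestine than in the libraries labelled forestomach. Neurod1 overlapped, and Nkx6-2, Nkx6-3, Ptgdr, Cckar, Cym, Gcg and Shisa6 were lower in E12 small intestine.

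The 12 genes with the largest folds in the other direction held 6 posterior Hox genes. Hoxb13, the last gene of its cluster, stood at 150 and 159 CPM in the libraries labelled hindstomach and at 2 and 0 counts in those labelled forestomach, a ratio of 5179 (95% exact counting interval 1433 to 42771, edgeR adjusted p 9.7e-06). Hoxa10 stood at 104 and 120 CPM against 3 and 2 counts, and Hoxa9 at 52.2 and 41.9 CPM against 0 and 1 counts. Hoxd10 stood at 17.01 and 20.3 CPM, Hoxd11 at 31.9 and 36.3 and Hoxd13 at 29.6 and 32.3, with at most 2 counts in either library labelled forestomach. Hoxa11os stood at 31.0 and 41.6 CPM against 0 counts, which is at least 396-fold lower in the libraries labelled forestomach; it overlaps Hoxa11 on the opposite strand, and the strand setting of the counting is not given, so reads of the pair cannot be told apart. Outside the clusters, Avpr1a, a vasopressin receptor, was at least 219-fold lower at 16.5 and 23.5 CPM against 0 counts. Ly6a, a surface protein of progenitor cells, stood at 14.6 and 21.6 CPM against 1 and 0 counts. Arhgap36 stood at 19.3 and 29.5 CPM against 0 counts, and lost its call without either library labelled forestomach (edgeR adjusted p 0.056 and 0.069). Dppa4 and Rbmxl2, genes of the germ line, completed the 12 and are described with that group.

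The promoters of 2 genes from each side are printed, since those genes had some of the largest folds and their promoters held a motif that was searched for. They are the 250 bases before an annotated start, read 5′ to 3′ on the gene's strand, from RefSeq on build GRCm38.p6. Hoxa10 and Hoxd11 have 2 annotated starts each, and the window of the other start held no SOX match. Nkx6-2 lies at chr7:139582798-139583047 on the minus strand and Sfrp5 at chr19:42202253-42202502 on the minus strand, and capitals mark AGATAA, the GATA motif. Hoxa10 lies at chr6:52240855-52241104 on the minus strand and Hoxd11 at chr2:74679308-74679557 on the plus strand, and capitals mark ACAANGG, the SOX motif.
Nkx6-2: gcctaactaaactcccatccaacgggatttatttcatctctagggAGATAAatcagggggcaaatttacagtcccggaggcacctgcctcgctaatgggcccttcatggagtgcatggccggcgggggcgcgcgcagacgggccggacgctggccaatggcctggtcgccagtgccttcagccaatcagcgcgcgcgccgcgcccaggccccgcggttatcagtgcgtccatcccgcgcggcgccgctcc
Sfrp5: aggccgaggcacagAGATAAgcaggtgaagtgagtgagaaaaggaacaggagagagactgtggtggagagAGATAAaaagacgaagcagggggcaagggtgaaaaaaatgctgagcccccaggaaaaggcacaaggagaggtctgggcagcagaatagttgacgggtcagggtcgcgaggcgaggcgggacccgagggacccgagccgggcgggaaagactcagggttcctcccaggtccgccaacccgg
Hoxa10: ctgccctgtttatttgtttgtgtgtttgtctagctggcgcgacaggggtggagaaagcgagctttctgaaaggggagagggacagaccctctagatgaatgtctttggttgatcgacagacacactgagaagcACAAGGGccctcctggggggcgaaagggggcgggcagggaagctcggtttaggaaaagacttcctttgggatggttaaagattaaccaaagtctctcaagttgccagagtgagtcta
Hoxd11: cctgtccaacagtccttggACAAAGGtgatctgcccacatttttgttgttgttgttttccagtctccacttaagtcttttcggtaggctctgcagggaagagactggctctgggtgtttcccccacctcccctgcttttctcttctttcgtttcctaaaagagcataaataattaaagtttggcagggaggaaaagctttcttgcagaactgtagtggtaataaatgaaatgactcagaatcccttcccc

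AGATAA lay 205 bases before the start in Nkx6-2 and 236 and 180 bases before it in Sfrp5. ACAANGG lay 117 bases before the start used in Hoxa10 and 231 before that in Hoxd11. Of the 24 named genes, 18 matched a window of 300 bases that runs from 250 before the start to 50 after it, 9 on each side. Both strands were searched for 6 motifs, none of which contains another. Arhgap36, Hoxa10 and Hoxd11 have 2 windows each, and a gene was counted where any of its windows held a match. Among the 9 genes higher in the libraries labelled forestomach, the GATA-factor letters, AGATAA, were in the windows of 3, P2rx1 besides the 2 printed, and TTTATNG (CDX) in those of 2, Cpa1 and Cym. Among the 9 lower genes, ACAANGG (SOX) was in those of 2, Hoxa10 and Hoxd11, and neither AGATAA nor TTTATNG was found. CAAAGTCCA (HNF4), TGTTTAC (FOXA) and the palindromic HNF1 motif were in none of the 18. Of all 32851 windows of this length, 11.2% hold the GATA letters, 10.9% the CDX, 13.6% the SOX, 3.65% the FOXA, 0.475% the HNF4 and 0.00913% the HNF1 letters. A match describes letters only.

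Hox genes numbered 9 to 13 were high in the libraries labelled hindstomach and near 0 in those labelled forestomach, whereas those numbered 1 to 5 went both ways. Of 39 Hox genes, 35 passed the filter on low counts, of which 3 were higher and 16 lower in the libraries labelled forestomach by the call rule, beside 7.11% of all genes. Their median log2 fold change was -4.61, or -4.38 with genes at 0 in a group set to their bound, against 0 over all genes tested. Genes numbered 9 to 13 summed to 435 and 464 CPM in the libraries labelled hindstomach and to 0.881 and 0.621 CPM in those labelled forestomach, and 10 of the 12 tested were called lower. The same genes summed to 0.440 and 1.66 CPM in E12 small intestine and to at most 0.0723 CPM in any E14 stomach library, so they were high in the libraries labelled E12 hindstomach and near 0 in the others. Genes numbered 6 to 8 summed to 59.3 and 61.3 CPM against 3.91 and 3.55, with 3 of 8 called lower. Genes numbered 1 to 5 summed to 131 and 124 CPM in the libraries labelled forestomach and to 78.9 and 51.8 in the others, with 3 of 15 called in each direction.

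Hox genes called higher in the libraries labelled forestomach came from the low-numbered end. Hoxc5 stood at 24.8 and 28.2 CPM against 0.954 and 0, and Hoxc4 at 23.7 and 19.98 against 0.554 and 0.389. Both were also called higher in forestomach at E14 (mean of 128 against 4.03 CPM for Hoxc5 and 52.3 against 7.60 for Hoxc4). Among low-numbered genes called lower, Hoxd4 stood at 0 counts against 3.20 and 2.51 CPM and Hoxb3 at 1.06 and 1.73 against 4.98 and 5.57. Hoxb3 lost its call without any one of the 4 libraries (edgeR adjusted p 0.077 to 0.23). Hoxa5, at 8.35 and 7.97 CPM against 9.94 and 9.25, did not pass the test (edgeR adjusted p 0.91). At the posterior end, Hoxb7 stood at 0.282 and 0.259 CPM against 19.6 and 24.4 and Hoxa7 at 0.916 and 0.466 against 18.03 and 15.8. Hoxb9 stood at 0.564 and 0.259 CPM against 14.7 and 19.0, Hoxd12 at 0 counts against 4.89 and 6.07 CPM, and Hoxa11 at 0 counts against 6.12 and 8.32. Hoxa13 (0 and 0.259 CPM against 9.91 and 12.1) and Hoxc9 (0 counts against 2.71 and 1.11 CPM) missed the threshold with edgeR adjusted p of 0.059 and 0.081.

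Under DESeq2, 7 of the Hox calls were lost. It gave an adjusted p of 0.41 for Hoxd10, 0.11 for Hoxd13, 0.53 for Hoxd12, 0.50 for Hoxa11, 0.12 for Hoxb9, 0.071 for Hoxd9 and 0.051 for Hoxd4. The other 9 genes called lower by edgeR, Hoxb13, Hoxa10 and Hoxa9 among them, kept their calls, and 2 more Hox genes passed under DESeq2 alone, which makes 11. Without the second library labelled forestomach the edgeR adjusted p was 0.062 for Hoxd12, 0.054 for Hoxb9, 0.053 for Hoxd9 and 0.12 for Hoxa7, which also lost its call without the first (0.059), and Hoxa11 lost its call without any one of the 4 libraries (0.058 to 0.076).

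**Figure D2:**
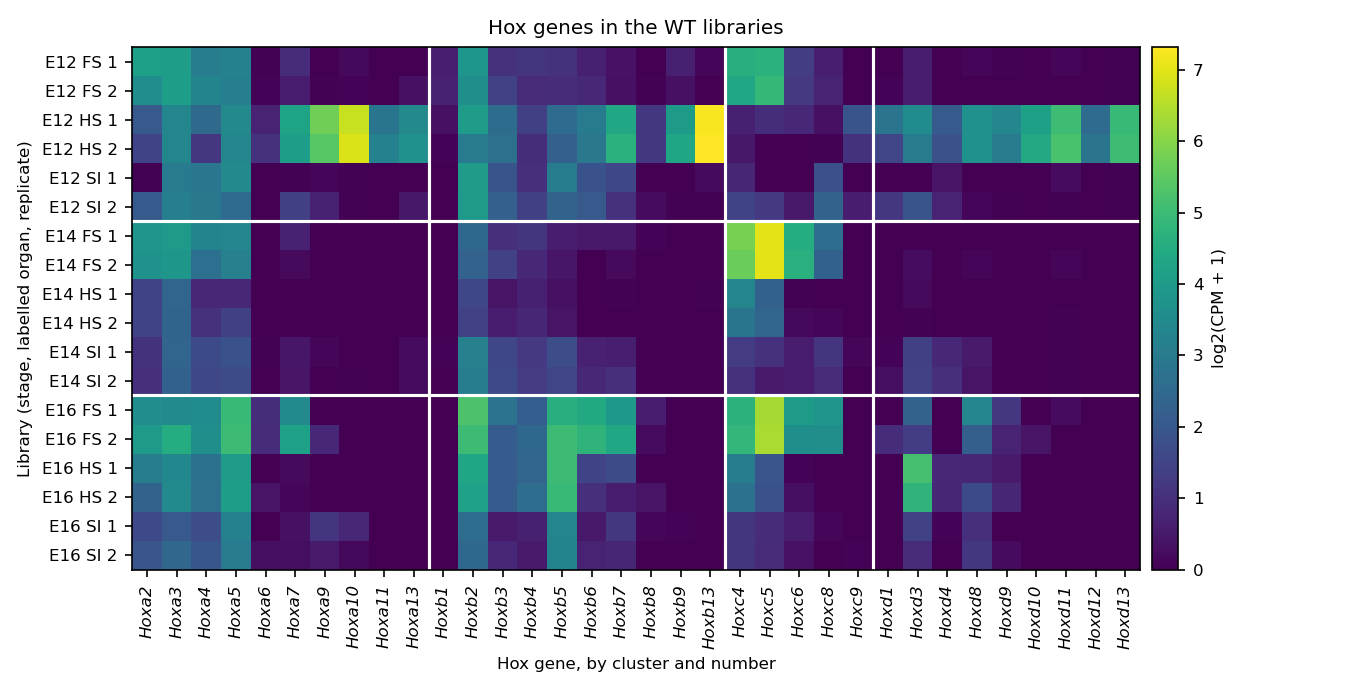
Heat map of tested Hox genes (columns, ordered by cluster and number, clusters divided by white lines) in the 18 wild-type libraries of forestomach (FS), hindstomach (HS) and small intestine (SI) at E12, E14 and E16 (rows), coloured by log2(CPM + 1). The 2 rows labelled E12 HS carry signal from Hoxa9 to Hoxa13, from Hoxd8 to Hoxd13 and at Hoxb9 and Hoxb13 that the other E12 and E14 rows lack.

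Among foregut and squamous lineage factors, Sox2 and Sox21 were higher in the libraries labelled forestomach and others were lower. Of 30 tested, 9 were higher, 4 lower and 17 not called, beside 7.11% called over all genes, the share that the counts of the other lists also stand beside, with a median log2 fold change of 0.14. Sox2 stood at 185 and 160 CPM against 20.6 and 9.07, a log2 fold change of 3.54 with an SE of 0.45 (edgeR adjusted p 4.4e-05). That fold change was 4.25 without the first library labelled hindstomach and 3.07 without the second. Sox21, a related factor, stood at 119 and 132 CPM against 4.25 and 3.41, and Pitx1, a homeodomain factor, at 237 and 216 against 16.6 and 10.5. Irx3 and Irx5, neighbouring homeobox genes, stood at 40.9 and 43.5 and at 30.6 and 36.1 CPM, against 2.40 and 0.718 and 1.54 and 0.688. Klf4, a factor of differentiating epithelia, was higher by a log2 fold change of 1.49 with an SE of 0.20 (edgeR adjusted p 4.3e-05). Nkx2-1, a factor that marks lung and thyroid endoderm, stood at 11.98 and 11.9 CPM against 0.185 and 0.269, and the lung surfactant gene Sftpc at 8.67 and 9.21 CPM against 0 and 3 counts. Sftpc lost its call without the first library labelled hindstomach (edgeR adjusted p 0.085). Of 8 lung and thyroid endoderm markers tested, 2 were higher and 2 lower, and the list summed to 36.3 and 40.2 CPM against 60.9 and 62.4, with Hhex, also a liver and pancreas factor, at 15.6 and 18.9 against 58.0 and 61.5. Klf5, the most abundant of the list, stood at 270 and 224 CPM against 149 and 168 and did not reach the fold.

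The lower factors included Gata3, Tbx3 and Tfap2c. Tfap2c, which is also made by germ cells, stood at 1.37 and 0.0518 CPM against 19.4 and 2.00, and lost its call without the first library labelled hindstomach (edgeR adjusted p 0.59) or the second labelled forestomach (0.23). Gata3 stood at 1.06 and 0.725 CPM in the libraries labelled forestomach and at 26.98 and 27.2 in the others, a log2 fold change of -4.92 with an SE of 0.66 (edgeR adjusted p 3.9e-05), and Tbx3 at 2.85 and 2.48 against 39.0 and 31.7. At E14, Gata3 was called the other way, higher in forestomach (edgeR adjusted p 9.5e-05). Among markers of squamous basal cells, Trp63 stood at 15.05 and 11.96 CPM against 6.34 and 2.96 and did not pass the test (log2 fold change 1.54 with SE 0.54, edgeR adjusted p 0.089), and Krt5, its keratin partner in basal cells, stood at 3.45 and 3.83 against 0 and 1.53 (edgeR adjusted p 0.18). At E14 the same genes stood at 455 and 458 CPM for Trp63 and at 352 and 380 for Krt5 in forestomach.

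Of 18 keratins tested, 1 was higher and 1 lower, beside 7.11% called over all genes. Krt8, the most abundant, stood at 1290 and 1324 CPM against 715 and 832, below the fold required. Krt19, a keratin of simple epithelia, stood at 220 and 218 CPM against 473 and 614, a log2 fold change of -1.31 with an SE of 0.21 (edgeR adjusted p 0.00031). Krt80 was at least 16.3-fold higher from a mean of 1.48 CPM. Its call was lost with only the 6 E12 libraries in the fit, and in the fit of all 4 with the replicate number as a block. Krt13, a keratin of mature squamous epithelium, had 0 counts in all 4 libraries. Of 30 basal and stratified adhesion genes, 1 was higher and 3 lower. Cldn8, a claudin, stood at 14.7 and 17.2 CPM against 154 and 227. Of 24 claudin and tight junction genes, Cldn18 was higher and Cldn2 and Cldn8 were lower, and Cldn2 lost its call without the first library labelled forestomach (edgeR adjusted p 0.058).

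Factors of the posterior foregut and intestine split. Of 30 tested, 9 were higher and 6 lower in the libraries labelled forestomach, with a median log2 fold change of 0.68. The list summed to 1757 and 1823 CPM in the libraries labelled forestomach and to 1610 and 1736 in those labelled hindstomach. Gata4 differed by a log2 fold change of 9.18 with an SE of 0.33 (edgeR adjusted p 1.7e-12), Pdx1 by 6.80 (SE 0.59, edgeR adjusted p 2.9e-07) and Gata5 by 2.12. The Pdx1 value depends on the first library labelled hindstomach, since the second has 0 counts, and was 12.28 without the first and 5.81 without the second. Onecut3 was at least 41.5-fold higher, at 3.24 and 4.32 CPM against 0 counts. Osr2, a zinc finger factor, was lower at 1.34 and 0.388 CPM against 91.6 and 97.3, and stood at 152 and 114 in E12 small intestine. Cdx2 was lower by a log2 fold change of -5.95 with an SE of 0.36 (edgeR adjusted p 2.8e-09). Hnf4a, a factor of glandular and intestinal epithelium, stood at 42.1 and 59.3 CPM against 22.4 and 42.3, and its groups overlapped (edgeR adjusted p 0.30). Foxa1, the most abundant, stood at 421 and 462 CPM against 499 and 473 and did not pass the test.

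Genes of the pancreatic and biliary buds were higher in the libraries labelled forestomach more often than lower. Of 31 tested, 12 were higher and 2 lower, beside 2.83% and 4.28% of all genes, with a median log2 fold change of 3.10, or 2.46 with genes at 0 set to their bound. Besides Cpa1, Nkx6-2, Nkx2-2, Gcg and Pdx1, Ptf1a, the factor that specifies pancreatic progenitors, stood at 11.49 and 5.49 CPM against 0 and 2 counts. Nkx6-1, a factor of beta cells and their progenitors, stood at 7.93 and 5.95 CPM against 3 and 0 counts. Hhex, a factor of liver and pancreas buds, was lower at 15.6 and 18.9 CPM against 58.0 and 61.5. The list summed to 730 and 697 CPM in the libraries labelled forestomach, 98.2 and 110 in those labelled hindstomach, and 792 and 757 in E12 small intestine. Whether pancreatic cells were part of the tissue taken was not tested. In bulk libraries, fewer cells of a type and less RNA per cell cannot be told apart.

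Notch and endocrine genes showed the largest count of called members among the lists. Of 38 tested, 20 were higher and 3 lower, beside 2.83% higher and 4.28% lower over all genes, with a median log2 fold change of 2.36, or 2.23 with genes at 0 set to their bound. Dll1, a Notch ligand of endocrine precursors, stood at 21.0 and 24.4 CPM against 1.23 and 0.479, and the receptor Notch1 at 32.6 and 36.3 against 8.09 and 6.16. Hes1, a Notch target and the most abundant member, stood at 231 and 210 CPM against 104 and 122, below the fold required. Neurog3, which commits gut and pancreas cells to the endocrine fate, stood at 1.30 and 2.59 CPM against 0 counts, at least 21.4-fold higher. Of the hormone genes, Pyy stood at 95.5 and 85.3 CPM against 1.23 and 4.34, Ghrl (ghrelin) at 3.98 and 4.48 against 0 counts, and Gast (gastrin) at 2.15 and 1.68 against 0 counts. Chgb, a granule protein of endocrine cells, stood at 14.4 and 17.1 CPM against 2 and 3 counts. The 3 lower members were Hey2, Nts and Dll4. All 3 lost their calls in the fit of the 6 E12 libraries, and Nts also in that of the 4 compared. Hey2, a Notch target, stood at 0 counts against 4.09 and 0.718 CPM and lost its call without either library labelled forestomach or the first labelled hindstomach (edgeR adjusted p 0.13, 0.16 and 0.11). Dll4, a Notch ligand, lost its call without the first library labelled forestomach (edgeR adjusted p 0.087) or the second labelled hindstomach (0.051).

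Of 24 gastric epithelium genes tested, 8 were higher and 1 lower in the libraries labelled forestomach, with a median log2 fold change of 1.17, or 0.46 with genes at 0 set to their bound. Vsig1, a junction protein of the stomach, stood at 20.1 and 26.3 CPM against 0.431 and 1.17, and Muc1, a membrane mucin, at 30.1 and 33.1 against 8.06 and 7.09. Cldn18 differed by a log2 fold change of 6.20 with an SE of 0.48 (edgeR adjusted p 7.2e-08), and by 7.73 and 5.47 without the first and the second library labelled hindstomach. Psca, the lower member, stood at 0.0705 and 0.233 CPM against 1.94 and 4.52. Gkn1, a product of mature gastric pit cells, had 0 counts in all 4 libraries.

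Of 30 intestinal epithelium genes tested, 4 were higher and 11 lower, with a median log2 fold change of -1.09. Vil1, which bundles actin in microvilli, stood at 5.04 and 3.26 CPM against 26.9 and 37.2 in the libraries labelled hindstomach and 19.3 and 41.1 in E12 small intestine. Fabp1, a fatty acid carrier of enterocytes, stood at 0.493 and 0.155 CPM against 17.3 and 18.1, and Apob, which packs dietary lipid, at 0.881 and 0.569 against 33.0 and 18.2. Dpp4, a brush border peptidase, stood at 20.9 and 17.4 CPM against 123 and 139, and Tff3, a goblet cell peptide, at 0.388 and 0.569 against 7.23 and 5.09. Isx, an intestinal homeobox gene, stood at 3.10 and 0.595 CPM against 20.02 and 23.2, below 146 and 136 in E12 small intestine, and lost its call without the second library labelled forestomach (edgeR adjusted p 0.058). The higher members included Phgr1, Myo1a and Cdhr2, each with a mean of 3.85 CPM or less in its higher group, and all 3 lost their calls in fits of the 4 or the 6 E12 libraries alone. Ihh, the most abundant member and a hedgehog ligand, stood at 171 and 179 CPM against 115 and 157 and did not pass the test (edgeR adjusted p 0.24).

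Some of the genes highest in the libraries labelled hindstomach set them apart from E12 small intestine as well, and others did not. Clca3, a secreted product of goblet cells, stood at 374 and 550 CPM, against 0.564 and 1.29 in the libraries labelled forestomach and 0.440 and 0.159 in small intestine. Postn, an extracellular matrix protein, stood at 1188 and 1551 CPM, against 7.82 and 5.49 and, in small intestine, 32.4 and 21.5. By contrast, Gucy2c, the receptor for guanylin in the intestine, stood at 60.0 and 54.6 CPM against 0.810 and 0.207 in the libraries labelled forestomach and 66.2 and 64.3 in small intestine. Prdm1, a repressor of the immature intestinal epithelium, stood at 89.0 and 94.8 CPM against 0.916 and 1.14, and at 82.2 and 71.6 in small intestine. These 4 genes were chosen after their values were seen, and all 4 were called lower in the libraries labelled forestomach (edgeR adjusted p 3.4e-08 or less).

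**Figure D3:**
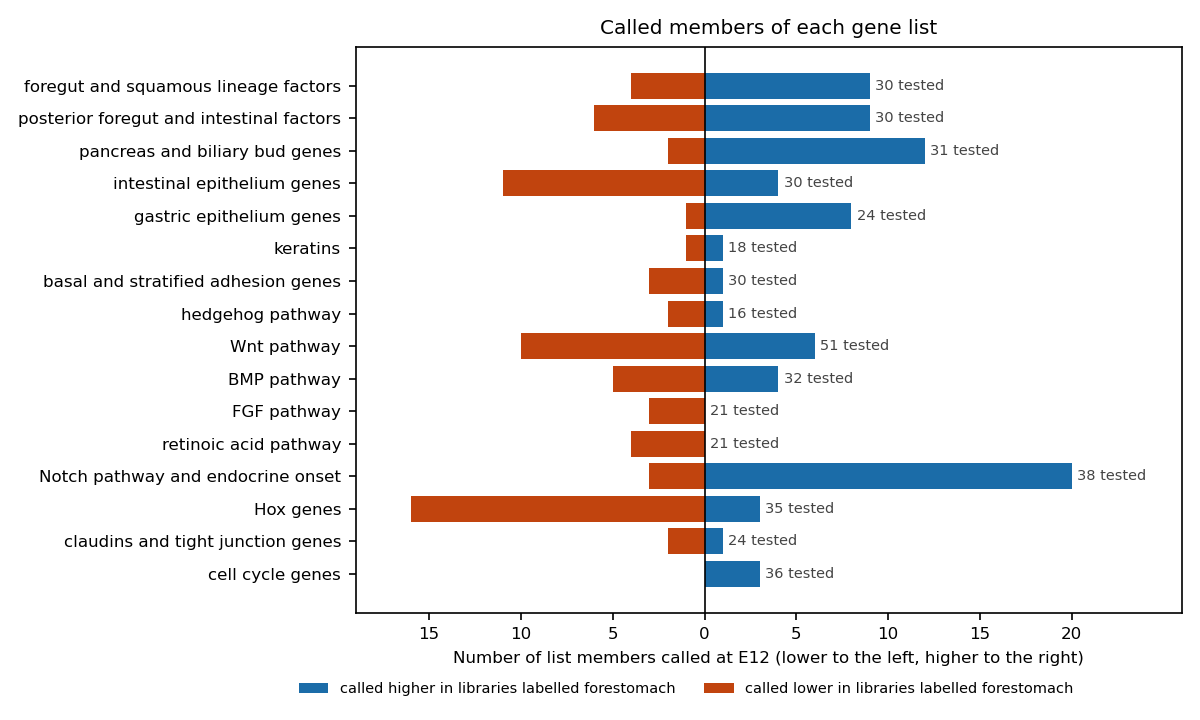
Number of members of each of the 16 gene lists called higher (blue, right) and lower (red, left) in the libraries labelled forestomach than in those labelled hindstomach at E12, with the number tested beside each bar. The bars reach 20 of 38 to the right for Notch and endocrine genes and 16 of 35 to the left for Hox genes.

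Signalling genes were called in both directions, and the counts of the 5 pathways below stand beside 7.11% called over all genes. In the hedgehog list, 1 of 16 tested was higher and 2 were lower. Shh, the ligand made by gut endoderm, stood at 104 and 96.4 CPM against 260 and 277, a log2 fold change of -1.42 with an SE of 0.26 (edgeR adjusted p 0.0011), and Gas1, a co-receptor, at 6.73 and 7.32 against 20.6 and 18.6. Gas1 lost its call without either library labelled forestomach or the first labelled hindstomach (edgeR adjusted p 0.12, 0.094 and 0.074). Ptch1, the receptor and a target of the pathway, stood at 9.73 and 14.1 CPM against 11.1 and 12.6, so its groups overlapped. Of 51 Wnt genes, 6 were higher and 10 lower, with a median log2 fold change of -0.14. Sp5, a Wnt target, stood at 27.3 and 27.5 CPM against 0.892 and 0.509, and the receptor Fzd5 at 42.1 and 30.7 against 12.7 and 9.70. Among the ligands, Wnt11 stood at 3.88 and 5.31 CPM against 43.4 and 45.9 and Wnt5a at 2.40 and 4.22 against 31.8 and 27.6. Lef1, which carries Wnt signals to DNA, stood at 4.51 and 2.07 CPM against 30.1 and 21.8, and Sfrp2, a secreted inhibitor, at 12.4 and 12.7 against 62.5 and 78.7. Axin2, a common Wnt target, stood at 1.13 and 1.73 CPM against 2.12 and 0.808 and its groups overlapped.

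In the BMP list, 4 of 32 tested were higher and 5 lower, with a median log2 fold change near 0. Id4, a target of BMP signals, stood at 117 and 111 CPM in the libraries labelled forestomach and at 3.63 and 3.56 in the others. Id1, of the same family, stood at 108 and 103 CPM against 33.9 and 11.46, and Id3 at 184 and 160 against 67.9 and 16.01. Id2, of the same family, went the other way at 281 and 277 CPM against 598 and 900. The ligand Bmp2 stood at 2.40 and 0.595 CPM against 32.7 and 38.3. Id1, Id3 and Bmp2 lost their calls in the fit of the 6 E12 libraries, Id3 also in that of the 4 compared. Of 21 retinoic acid genes 4 were lower, among them Aldh1a2, which makes retinoic acid, at 6.62 and 6.50 CPM against 23.8 and 34.7, and Rbp4, a retinol carrier, at 113 and 101 against 220 and 251. Of 21 FGF genes 3 were lower, Etv1, Fgfr4 and Fgfr1, with log2 fold changes from -1.36 to -1.06. All 3 calls were lost when single libraries were left out. Etv1 had an edgeR adjusted p of 0.092 and 0.054 without the first and second library labelled forestomach and 0.084 without the second labelled hindstomach. Fgfr1 had 0.074 and 0.063 without those labelled forestomach and 0.064 without the first labelled hindstomach. Fgfr4 fell short of the fold, at a log2 fold change of -0.93 without the second library labelled forestomach and -0.91 without the second labelled hindstomach. Fgfr2, the most abundant, stood at 185 and 216 CPM against 114 and 114, below the fold required.

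Of 36 cell cycle genes, 3 were called, all higher in the libraries labelled forestomach, which is near the 7.11% called over all genes. Ccnd2 stood at 797 and 735 CPM against 232 and 229, and Ccnd1 at 201 and 233 against 101 and 99.2, both D-type cyclins. Cdkn1a, an inhibitor of cyclin-dependent kinases, stood at 132 and 127 CPM against 36.9 and 30.0. Mki67, a marker of dividing cells, stood at 103 and 86.5 CPM against 94.96 and 69.3, and its groups overlapped.

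Germ line genes were high in the first library labelled hindstomach and much lower in the second. This list of 22 genes was put together after the values were seen, so it has no test as a list. Of the 21 tested, 14 were called lower in the libraries labelled forestomach, beside 4.28% of all genes. The list summed to 792 CPM in the first library labelled hindstomach, 185 in the second, and 107 and 113 in those labelled forestomach. The sum was 167 and 126 CPM in E12 small intestine and 211 to 260 in the E14 stomach libraries. By this sum the first library labelled hindstomach stood above all of these. The second stood above the forestomach and small intestine libraries of E12 but below the E14 stomach libraries. Dppa5a stood at 202 CPM in the first library labelled hindstomach and 19.3 in the second, against 1.20 and 0.414. Dppa3, a gene of germ cells and early embryos, stood at 105 and 9.67 CPM against 0.211 and 0.155, and Dazl, an RNA-binding protein of germ cells, at 86.7 and 12.9 against 0.0352 and 0.155. Pou5f1, a pluripotency factor that germ cells keep, stood at 42.8 and 3.65 CPM against 3 counts in each library. Dppa4 stood at 31.7 and 2.84 CPM and Rbmxl2 at 18.5 and 1.44, against 0 counts. The second library labelled hindstomach was lower than the first in each of these 6 genes and still above both labelled forestomach. In E12 small intestine, Dppa5a stood at 52.3 and 28.04 CPM and Dppa3 at 28.7 and 13.3. Kit, a receptor of germ cells and other cells, did not pass the test (edgeR adjusted p 0.87), at 94.6 and 100.4 CPM against 109 and 109. The value of Kit alone was near the sum of the list in the libraries labelled forestomach. Pecam1, a surface protein of endothelium that germ cells also make, stood at 15.4 and 0.539 CPM against 0.423 and 0, and lost its call without the first library labelled hindstomach (edgeR adjusted p 0.62) or the second labelled forestomach (0.11).

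Without the first library labelled hindstomach, Rbmxl2 and Nanog were no longer called, nor were they without either library labelled forestomach. Dppa4 and Dazl lost their calls without single libraries labelled forestomach (edgeR adjusted p of 0.051 and 0.063 for Dppa4 and 0.069 and 0.053 for Dazl), and under DESeq2 the adjusted p of Dppa4 was 0.42 and that of Rbmxl2 0.47. Over all genes, 433 were called higher and 601 lower without the first library labelled hindstomach, and 382 and 648 without the second.

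**Figure D4:**
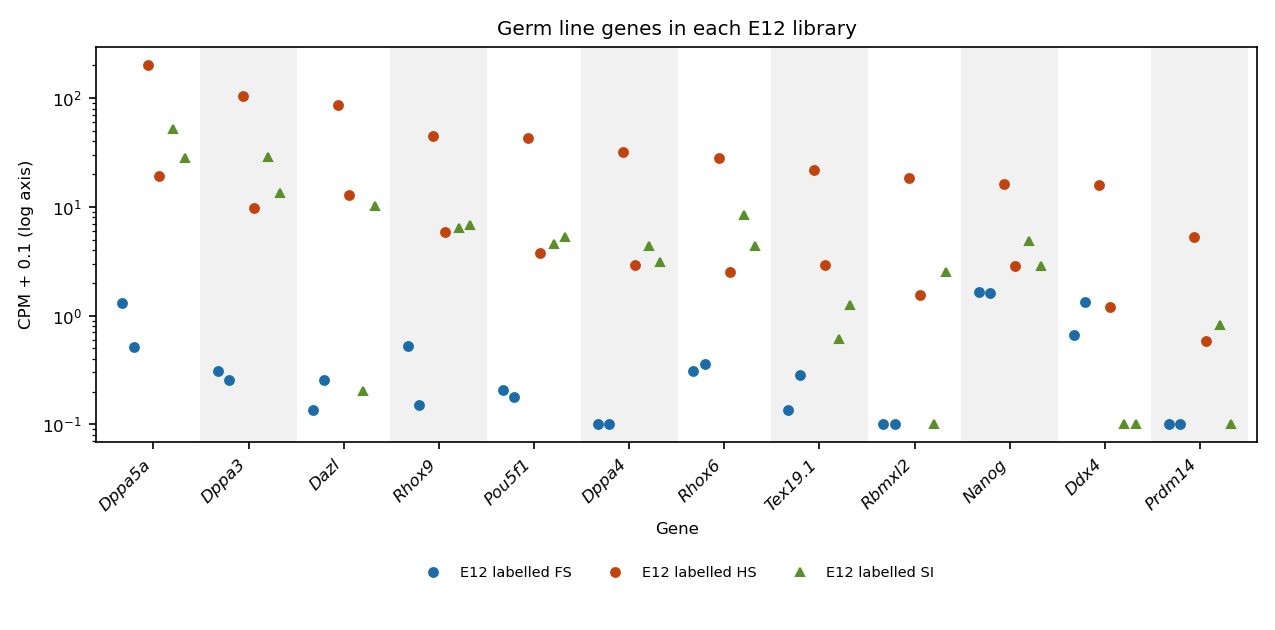
CPM plus 0.1, on a log axis, for 12 germ line genes in each E12 library, 2 per group, with forestomach as labelled in blue, hindstomach as labelled in red and small intestine as green triangles. The first library labelled hindstomach is the highest point for Dppa5a at 202 CPM and for Dppa3 at 105 CPM, and the second lies about an order of magnitude lower.

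Markers of other cell types were low in the sorted cells with some exceptions. Of 17 mesenchyme and muscle markers tested, 3 were higher (Dcn, Barx1 and Col1a2) and 4 lower (Postn, Tagln, Des and Acta2) in the libraries labelled forestomach. Their sum was 104 and 114 CPM against 1292 and 1586, of which Postn made up 1188 and 1551, while Pdgfra stood at 3.52 and 5.28 CPM against 3.51 and 0 and Foxf1 at 6.77 and 10.8 against 12.2 and 1.32. Col1a2, a collagen chain, lost its call without the second library labelled forestomach (edgeR adjusted p 0.081) or the second labelled hindstomach (0.068). Dcn, a matrix proteoglycan, stood at 26.6 and 28.03 CPM against 2.65 and 1.62, and Barx1, a stomach mesenchyme factor, at 13.99 and 11.9 against 2.28 and 0.269. In the fit of the 6 E12 libraries, Tagln, Des, Acta2, Barx1 and Col1a2 lost their calls, Acta2 and Col1a2 also in that of the 4 compared. The 12 erythroid markers summed to 271 and 238 CPM against 203 and 16.4, mostly from the embryonic globin Hbb-y at 188 and 165 against 146 and 11.97. Of 12 hepatoblast markers, 4 were lower and 1 higher, and the list summed to 202 and 176 CPM against 487 and 833. Afp, also made by yolk sac and gut endoderm, stood at 63.1 and 73.7 CPM against 282 and 494, whereas Alb stood at 8.60 and 7.38 against 0.769 and 2.18. The 10 immune markers summed to 8.99 and 12.8 CPM against 9.63 and 3.50, and the 7 mesothelium markers to 361 and 326 against 257 and 290. The 9 endothelium markers summed to 2.71 and 1.04 CPM against 20.9 and 4.88, with Cdh5, which defines that cell type, at 0 and 9 counts against 3 and 0. The part of these cells in the results above was not tested.

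Of 12 genes of the response to dissociation, Fosb was higher and Hspa1a and Hspa1b were lower. Hspa1b stood at 2.502 and 1.92 CPM against 3.78 and 29.9, and Hspa1a at 0.846 and 1.11 against 1.45 and 16.01. Both were high in the second library labelled hindstomach only, and without it their edgeR adjusted p was 0.11 and 0.63. Hspa1a also lost its call without the first library labelled forestomach (edgeR adjusted p 0.054). The whole list summed to 1759 and 1790 CPM against 1200 and 1212.

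The comparison was then set beside the same one at E14, which shares no library with it. At E14, 1459 genes were called between the libraries labelled forestomach and hindstomach (8.46% of those tested), 491 higher and 968 lower in forestomach. Of the 968 genes higher in hindstomach at E14, 202 (20.9%) were called higher in the libraries labelled forestomach at E12 and 141 (14.6%) were called in the same direction as at E14. Those 202 were 41.4% of the 488 genes called higher at E12, and the 141 were 19.11% of the 738 called lower. Of the 491 genes higher in forestomach at E14, 41 (8.35%) were called in the same direction at E12 and 58 (11.8%) in the opposite one. Over all genes tested, 2.83% were called higher and 4.28% lower at E12. Nkx6-2, Nkx6-3, Gata4, Pdx1 and Cldn18 were among those that turned round, and Pitx1, Hoxc5, Cdx2 and Postn were among those that kept their direction. At E16, 3464 genes were called (20.1%).

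**Figure D5:**
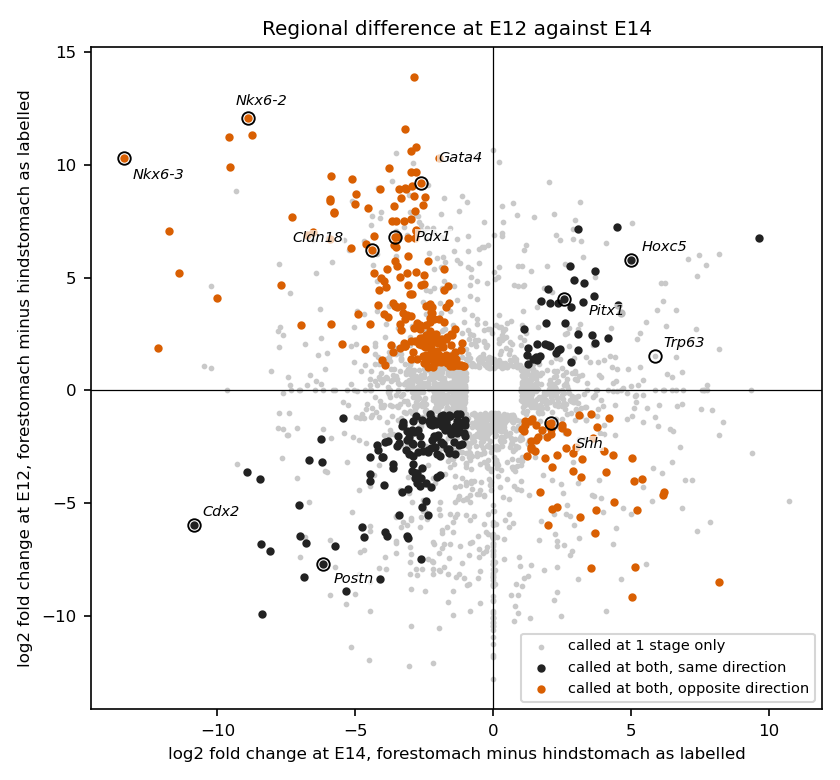
Log2 fold change of forestomach minus hindstomach as labelled at E14 (horizontal axis) and E12 (vertical axis) for every gene called at either stage. Orange points, called at both stages in opposite directions, lie mostly in the upper left, where the 202 genes with Gata4, Nkx6-3 and Pdx1 sit, and black points were called in the same direction.

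The difference between stages was tested as an interaction in the same fit. The forestomach minus hindstomach difference at E12 differed from that at E14 for 1646 genes (9.55%) and from that at E16 for 3489 (20.2%). The E16 split was 2217 higher and 1272 lower, and with RLE scaling, the size factors of DESeq2, it was 1756 and 1618. With wild-type libraries only it was 1830 and 1497. Gata4 had a log2 fold change of 9.18 at E12 and -2.61 at E14, a difference of 11.79 (SE 0.39, edgeR adjusted p 2.8e-13). Ihh went from 0.37 at E12 to -3.05 at E14, a difference of 3.42 (SE 0.26, edgeR adjusted p 1.8e-08), and Hnf4a from 0.65 to -2.94. Shh went the other way, from -1.42 at E12 to 2.10 at E14, a difference of -3.52 (SE 0.37, edgeR adjusted p 1.8e-06). Trp63 went from 1.54 to 5.88, a difference of -4.34 (SE 0.76, edgeR adjusted p 0.00083). Sox2 had 3.54 at E12 and 1.09 at E14, a difference of 2.45 (SE 0.59, edgeR adjusted p 0.011). Cdx2 was called lower in the libraries labelled forestomach at all 3 stages. With 0 counts of it in both E14 forestomach libraries, its difference from E14 was 4.89 with an SE of 1.80 and missed the threshold (edgeR adjusted p 0.10), as did that from E16 (-0.21, edgeR adjusted p 1.0).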

How the data were processed

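RNA-seq counts of the 27 embryonic libraries, in 13 groups, 3 of them small intestine without Cdx2, were used. The values are whole-number read counts per gene symbol, as the authors deposited them without normalization. STAR 2.5.3a, HTSeq, Bowtie2 and MACS2 and the build mm9 are named, with no roles, per the submitters' processing notes; the strand setting and annotation are not given in the sources used here. Unnamed rows (2) and 6 columns of adult intestine, 2 of which match no sample used here, were left out. Counts were scaled by TMM, filtered with filterByExpr at a minimum count of 10 and tested with edgeR 4.0.16 (glmQLFit and glmQLFTest) in R 4.3.3, with Benjamini-Hochberg adjustment over 17239 genes. Standard errors were taken as the fold (log2) over the root of F, and CPM are counts scaled to TMM-adjusted library size. All libraries shared an estimate of the spread. A gene with 0 counts in a group was set to 3 counts per library for a bound. Alternatives were RLE scaling, DESeq2 1.42.0, other filters, other sets of libraries, thinning, a replicate block and leaving out single libraries.

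The members and gene lists were chosen with earlier results of these data known, so counts over a list are descriptions. Named genes are, per direction, the 12 called genes of largest log2 fold change whose average log2 CPM reached 2 and whose groups did not overlap, leaving out 5 predicted gene models, and in each list the called members with the largest folds, the most abundant and those at the floor. Further members were named after their values were seen. Promoters came from RefSeq on GRCm38.p6, and no other coordinates were used. Some genes are not reported here.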

Additional observations from a re-analysis of the deposited data

Results flagged for a closer look

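Results were singled out here where the forestomach minus hindstomach difference, as labelled, was found to differ between stages by the interaction test in edgeR, called at an adjusted p below 0.05 and a difference of at least 1 in log2 fold change. Between E12 and E14, 1646 genes met this, and between E12 and E16, 3489 did.

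Against E14, the difference of log2 fold changes (E12 minus E14) was 11.79 for Gata4, 10.61 for Cldn18, 10.37 for Pdx1, 4.85 for Sox21, 3.59 for Hnf4a, 3.42 for Ihh, 2.45 for Sox2 and 1.504 for Pitx1. It was -3.52 for Shh, -4.34 for Trp63 and -4.91 for Krt5. Against E16 (E12 minus E16), it was 17.47 for Pdx1, 13 for Gata4, 11.54 for Cldn18, 5.47 for Sox21, 5.46 for Hnf4a, 5.03 for Ihh, 3.13 for Sox2 and 1.06 for Pitx1, and -3.50 for Trp63 and -4.08 for Krt5. Pdx1 had 0 counts in both E16 forestomach libraries and in the second library labelled E12 hindstomach, so the size of its difference depends on the prior count and is no bound. The stages share no library, and the tissue in the libraries labelled E12 hindstomach was not tested.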

How the results depend on the processing

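None of the 139 called genes followed one by one changed direction under any of the 14 E12 alternatives. The count of 1226 called genes became 370 with only the 6 E12 libraries in the fit, where 52 of the 139 lost their calls; the cause was not tested. Without the 7 libraries lacking Cdx2, 1169 genes were called. DESeq2 lost 9, 7 of them Hox genes, and RLE scaling and a minimum count of 50 lost 0. The fit of the 4 libraries lost 16, the same with the block 13, thinning 8, the wild-type fit 3, and no low-count filter and the 27-library block 1 each. Leaving out single libraries lost 14 to 26. Under DESeq2, 2 gastric genes and 2 keratins were called lower, and 2 keratins and 2 adhesion genes higher, beside 1 each as reported. Leaving out single libraries gave 840 to 1034 called genes at E12, 1192 to 1415 for the interaction with E14 and 2853 to 3299 for that with E16; the lone library left in a group is then assumed to vary like the other groups. Other settings kept these 3 counts within 1.5 times. The E16 interaction was 63.5% higher under TMM and 52.0% under RLE scaling, which moved the median of all genes from 0.11 to -0.062. Under TMM the share was 55.0% with wild-type libraries only and 56.5% after thinning. With the replicate number as a block, 1271 genes were called at E12 in the 27-library fit and 1017 in the 4-library fit. The numbers pair no samples by the labels, and deviations of same-numbered libraries correlated at 0.012. The block gave 1702 and 3535 genes for the interactions. Depth limits genes near 3 counts per library, whose fitted folds vary widely.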
